A study of Mus musculus and Homo sapiens with 24 samples.

Results

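The genes described here are 9 that act at the surface of fusing muscle cells: the fusion proteins MYMK and MYMX, the cadherins CDH15, CDH2 and CDH11, and the immunoglobulin-family adhesion molecules NCAM1, VCAM1, JAM2 and JAM3. They were taken by symbol, ignoring case, from the 58735 rows of the human count table and the 56748 rows of the mouse one. Each of the 9 had 1 row in each table. All 9 passed the filter on low counts in both lines, among the 18214 genes tested in LHCN-M2 and the 17065 tested in C2C12.

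The study followed the differentiation of 2 skeletal myoblast lines by RNA sequencing. LHCN-M2 is a line of human myoblasts immortalised with telomerase and CDK4, and C2C12 is a line of mouse myoblasts; each is a single established line. LHCN-M2 was sampled at days 0, 1 and 12 and C2C12 at days 0, 1 and 6, with 4 libraries at each day and 24 libraries in all. Every sample carried the genotype label control, and the labels name no agent and no medium. They also do not say whether the 4 libraries came from separate cultures, so the spread behind each p-value is that between libraries and may be technical.

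Myoblasts leave the cell cycle, align, adhere and merge their membranes into multinucleated myotubes. Cadherins and immunoglobulin-family molecules hold the cells together, and myomaker (MYMK) and myomixer (MYMX), both made almost only in muscle cells, carry out the merging: myomaker is needed for the outer leaflets to mix and myomixer for the fusion pore to form. Levels are given as CPM (read counts scaled to a common library total), which can be compared between libraries for 1 gene but not between genes of unequal length.

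Total counts ran between 33030258 and 48546621 per library in LHCN-M2 and between 32795699 and 43827517 in C2C12. On principal component 3 of all genes in LHCN-M2, day 0 replicate 2 stood apart from the other 3 libraries of its day (-72.5, against 19.1, 29.9 and 29.5). To a lesser degree so did day 12 replicate 1 (-22.3, against 9.3, 5.6 and 4.4). For CDH15, CDH11 and NCAM1 in LHCN-M2, the change at day 12 against day 0 is also given without such a library. For CDH2 a range with each library left out is given. Apart from MYMX, differences of single genes between the lines are given with all libraries only. On component 3 of C2C12, day 6 replicate 2 lay apart from its group (44.5, against -11.8, -28.3 and -6.5). The summed level of 8 muscle markers was between 1002 and 1320 CPM at day 0 and between 5966 and 6293 at day 12 in LHCN-M2, and between 295.3 and 310.7 at day 0 and between 2930 and 3139 at day 6 in C2C12. Of 7 markers tested, 6 were called higher and 1 lower at day 12 against day 0 in LHCN-M2. In C2C12, 7 were tested and 7 called higher at day 6 against day 0. DES, MYF5 and MYOD1 were counted in both lines. MYF5 fell in LHCN-M2, to 14.2 CPM at day 12 against 268.6 at day 0. PAX7, a marker of muscle stem cells, had 0 counts in LHCN-M2 at each day, and MYOG, an early differentiation factor, had 0 counts there at day 0. In bulk samples, a change in the share of cells that express a gene and a change in its RNA per cell cannot be told apart.

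MYMK and MYMX both rose over day 0 in both lines. In LHCN-M2, MYMX was higher at day 1 than at day 12, while MYMK was highest at day 12. In C2C12 both were low at day 1 and high at day 6.

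MYMK encodes myomaker, a membrane protein with several passes through the membrane. Its human gene (ENSG00000187616) lies on the minus strand of GRCh38 at chr9:133514586-133528612, introns included. In LHCN-M2 it had 0 counts in all 4 libraries at day 0, which allows a level of up to 0.0192 CPM over the group (3 counts). It had 5.12, 3.83, 5.92 and 5.13 CPM at day 1 and 222, 206, 231 and 216 CPM at day 12. The 3 days did not overlap. MYMK was at least 260.2-fold higher at day 1 than at day 0 (edgeR adjusted p = 3.06e-10), and 43.7-fold higher at day 12 than at day 1 (log2 5.45, SE 0.134, adjusted p = 2.96e-11). With 0 counts at day 0, MYMK passed the filter on low counts in LHCN-M2 only through days 1 and 12, which limits the test against day 0. In C2C12, Mymk had 0.985, 0.724, 0.480 and 0.504 CPM at day 0, from 16 to 39 counts per library. It had 4.63, 4.18, 2.19 and 4.71 CPM at day 1 and 96.7, 93.3, 81.4 and 85.3 CPM at day 6. These groups did not overlap either, and the difference was 5.74-fold at day 1 against day 0 (log2 2.52, SE 0.237, adjusted p = 2.09e-08) and 130-fold at day 6 against day 0 (log2 7.03, SE 0.202, adjusted p = 3.02e-17).

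MYMX encodes myomixer, a micropeptide of the cell surface also called myomerger or minion; the human gene (ENSG00000262179) lies on the plus strand at chr6:44216939-44218236. In LHCN-M2 it had 1.79, 2.55, 2.04 and 1.26 CPM at day 0, 74.2, 56.1, 70.4 and 56.3 CPM at day 1, and 45.9, 33.3, 40.5 and 36.6 CPM at day 12. Every day 1 library was above every day 12 library. MYMX was 33.7-fold higher at day 1 than at day 0 (log2 5.08, SE 0.19, adjusted p = 1.51e-11), and 1.64-fold lower at day 12 than at day 1 (log2 -0.72, SE 0.152, adjusted p = 0.00152). In C2C12, Mymx had 1.06, 0.301, 0.390 and 0.637 CPM at day 0, 1.21, 1.49, 0.829 and 1.96 CPM at day 1, and 24.9, 26.4, 21.4 and 21.1 CPM at day 6. Days 0 and 1 overlapped, through the highest day 0 library and the lowest day 1 library, and their difference passed the test (log2 1.15, SE 0.294, adjusted p = 0.00268). Day 6 stood clear of both, at 38-fold over day 0 (log2 5.25, SE 0.258, adjusted p = 2.24e-13).

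**Figure D1:**
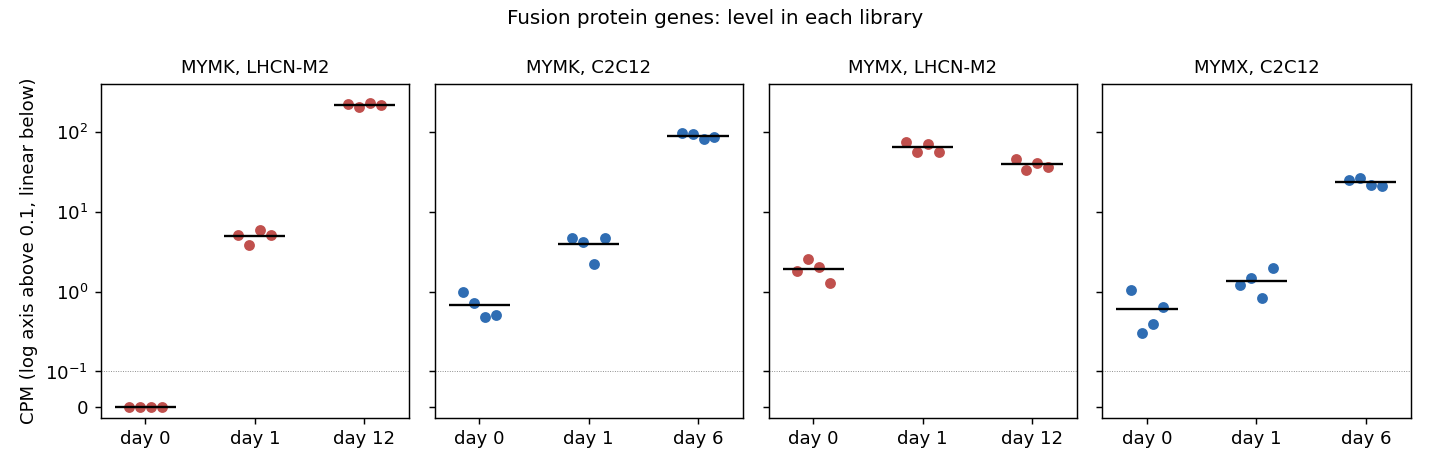
MYMK and MYMX in each library, as CPM by day for LHCN-M2 and C2C12, on an axis that is logarithmic above 0.1 CPM and linear below; each point is 1 library and the lines mark the group means. In LHCN-M2 the MYMX libraries of day 1 (56.1 to 74.2 CPM) lie above those of day 12 (33.3 to 45.9 CPM), whereas MYMK goes up at each step.

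The within-library ratio of MYMX to MYMK counts does not depend on library scaling. Its log2 in LHCN-M2 was -2.27, -2.63, -2.51 and -2.56 at day 12 and 3.85, 3.87, 3.57 and 3.45 at day 1. All 4 libraries of day 12 held more MYMK than MYMX counts, and all 4 of day 1 the reverse. The difference was -6.18 (two-sided exact permutation p = 0.0286, the smallest that 4 against 4 libraries allow; 0.0343 adjusted over the 6 ratios tested). In C2C12 the same log2 ratio was -1.93 ± 0.08 at day 6 and -1.51 ± 0.29 at day 1 (SD, n = 4 each), and the difference of -0.42 did not pass (exact permutation p = 0.0571, adjusted 0.0571).

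The 3 cadherins differed in direction. CDH15 rose over day 0 in both lines, CDH2 fell in LHCN-M2 and rose in C2C12, and CDH11 did the opposite on the last day. Classical cadherins bind the same cadherin on a neighbouring cell and link it through catenins to actin.

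CDH15, M-cadherin, is the cadherin most typical of muscle; the human gene (ENSG00000129910) lies on the plus strand at chr16:89171767-89195492. In mouse, the window from 250 bases before to 50 bases after the Cdh15 start (RefSeq, GRCm38.p6) held 4 E-boxes (CANNTG, the same on both strands), the motif that MyoD-family factors bind. At least 1 was present in 72.3% of the 32841 mouse promoters of that length, and 4 or more in 6.49%. The E-box CAGCTG was not in the window (16.3% of promoters hold it), nor was CAGGTG on either strand (20.2%). A match describes the letters, and no binding was measured.

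In LHCN-M2, CDH15 had 162, 261, 154 and 159 CPM at day 0, 311, 273, 332 and 305 CPM at day 1, and 287, 268, 291 and 295 CPM at day 12. The high day 0 value belongs to replicate 2, which stood apart. CDH15 was higher at day 1 than at day 0 (log2 0.73, SE 0.14, adjusted p = 0.000492; 0.97 and 1.01e-10 without that library). At day 12 against day 0 the log2 difference was 0.63 (SE 0.139, adjusted p = 0.00128; 0.86 and 4.32e-10 without it). Days 12 and 1 overlapped and did not pass (log2 -0.10, adjusted p = 0.616). In C2C12, Cdh15 had 14.2, 13.3, 11.9 and 14.2 CPM at day 0, 44.2, 33.3, 37.9 and 38.8 CPM at day 1, and 183, 208, 182 and 192 CPM at day 6. No library of one day reached the range of another. The difference was 14.3-fold at day 6 against day 0 (log2 3.84, SE 0.086, adjusted p = 4.75e-19), with 1.53 on the log2 scale at day 1 against day 0 (adjusted p = 4.3e-12).

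CDH2, N-cadherin, is found in muscle, heart and nerve; the human gene (ENSG00000170558) lies on the minus strand at chr18:27950966-28177446. Its LHCN-M2 values were 180.0, 138, 188 and 196 CPM at day 0, 85.8, 93.2, 90.6 and 89.2 CPM at day 1, and 110.0, 118, 119.5 and 122 CPM at day 12. The days did not overlap, and day 1 was the lowest. The low day 0 value belongs to replicate 2, which stood apart. With each library left out in turn, the log2 change at day 1 against day 0 ranged from -1.048 to -0.909. At day 12 against day 0 it ranged from -0.671 to -0.526. CDH2 fell at day 1 against day 0 (log2 -0.97, SE 0.096, adjusted p = 8.05e-07), rose at day 12 against day 1 (0.39, SE 0.096, adjusted p = 0.00449), and at day 12 was still below day 0 (-0.58, SE 0.096, adjusted p = 0.000108). In C2C12, Cdh2 had 23.9, 22.9, 25.8 and 32.0 CPM at day 0, 46.9, 50.2, 53.5 and 52.2 CPM at day 1, and 117, 109, 123 and 128 CPM at day 6. Each day was above the one before it, and day 6 was 4.56-fold over day 0 (log2 2.19, SE 0.087, adjusted p = 6.15e-15).

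CDH11, a cadherin known from bone and other mesenchyme, has its human gene (ENSG00000140937) on the minus strand at chr16:64943753-65126112. The LHCN-M2 libraries had 74.9, 48.0, 76.1 and 77.8 CPM at day 0, 178, 180.5, 182 and 178 CPM at day 1, and 144, 146, 148 and 145 CPM at day 12. The low day 0 value again belongs to replicate 2. CDH11 was higher at day 1 than at day 0 (log2 1.38, SE 0.119, adjusted p = 1.74e-07; 1.26 without that library), and higher at day 12 than at day 0 (1.07, SE 0.119, adjusted p = 1.84e-06; 0.94 without it). All day 12 libraries lay below all day 1 libraries, but the difference just missed the threshold of 0.05 (log2 -0.31, SE 0.117, adjusted p = 0.0501). Without that day 0 library it passed (adjusted p = 1.43e-05), as it did without day 0 replicate 3 (0.0494) or replicate 4 (0.0465). It did not pass without day 0 replicate 1 (0.0567), nor without any 1 library of day 1 or day 12.

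In C2C12, Cdh11 had 209, 227, 222 and 215 CPM at day 0, 296, 279, 259 and 284 CPM at day 1, and 85.2, 80.8, 85.0 and 82.4 CPM at day 6. It rose a little at day 1 against day 0 (log2 0.36, SE 0.051, adjusted p = 5.84e-06) and was 2.62-fold lower at day 6 than at day 0 (log2 -1.39, SE 0.052, adjusted p = 2.58e-15). The summed level of 6 fibroblast markers (PDGFRA, DCN, LUM, COL1A1, COL1A2 and THY1) had the direction of CDH11 on the last day against day 0, but not at every step. From day 1 to day 12 in LHCN-M2, mean CDH11 went down and the sum up. From day 0 to day 1 in C2C12, Cdh11 went up and the sum down. In LHCN-M2 the sum was between 9859 and 10240 CPM at day 0, between 12510 and 14680 at day 1 and between 21290 and 22340 at day 12, with 5 of 6 markers called higher and 1 lower at day 12 against day 0. In C2C12 it was between 5618 and 6813 CPM at day 0, between 3963 and 4486 at day 1 and between 1735 and 1793 at day 6, with 2 of the 5 tested called higher and 3 lower at day 6 against day 0. Most of the sum was collagen. In LHCN-M2 at day 12, COL1A1 and COL1A2 averaged 13110 and 8152 CPM, and in C2C12 at day 0, 914 and 5161 CPM. Other markers went against the sum. THY1 fell in LHCN-M2, to 61.5 CPM at day 12 against 199.5 at day 0. In C2C12, Dcn rose to 288 CPM at day 6, against 9.91 at day 0, and Lum to 9.22 CPM, against 0.0151. Thy1 was at 0 counts in C2C12 at days 0 and 6. JAM3 and VCAM1 had the same directions as this sum on the last day in both lines. The part of fibroblast-like cells in these results was not tested.

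**Figure D2:**
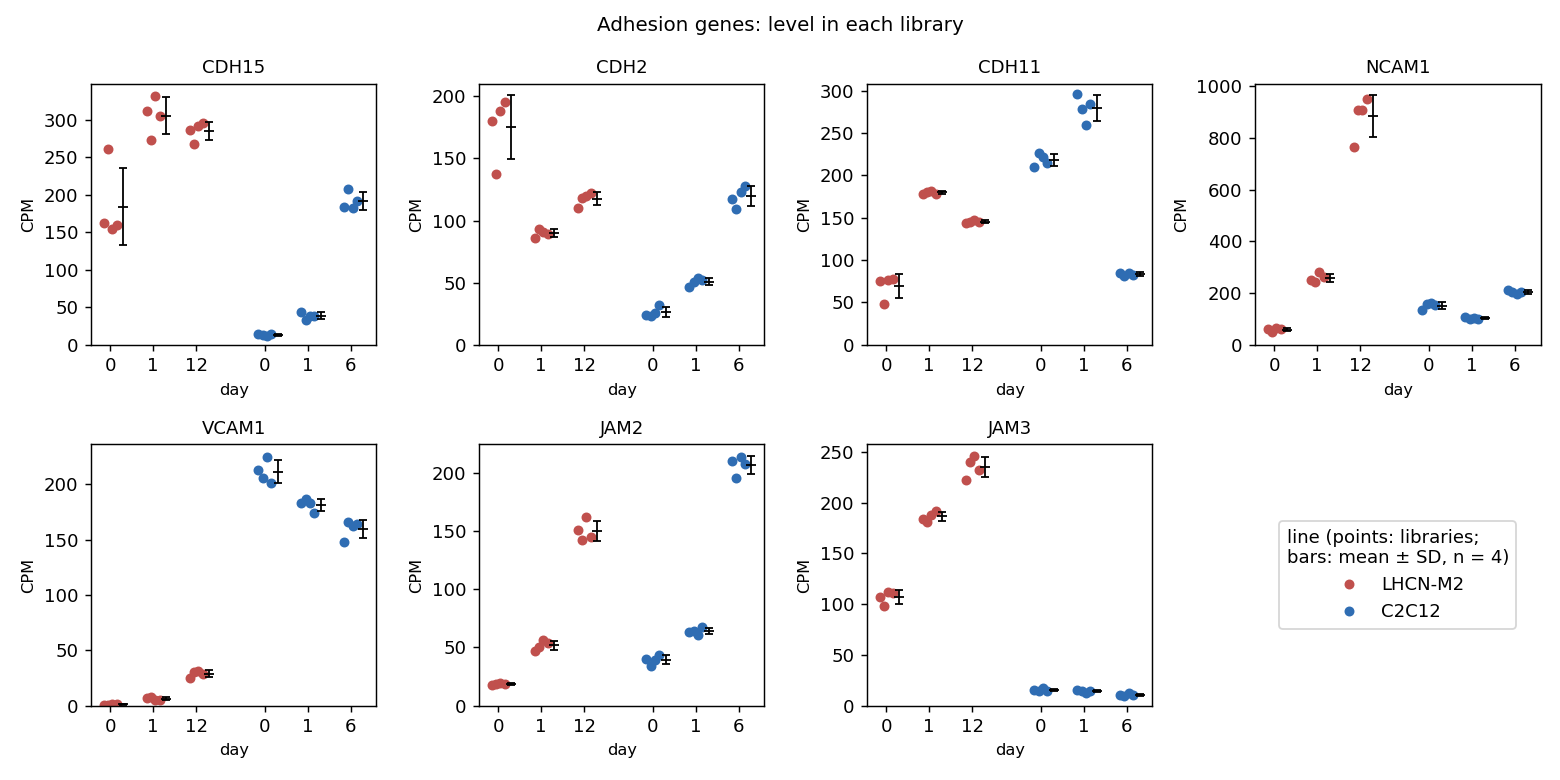
CPM of the 7 adhesion genes in each library on a linear axis, by day, for LHCN-M2 and C2C12; points are libraries and bars are the mean ± SD (n = 4). VCAM1 and JAM3 go up in LHCN-M2 and down in C2C12, and the day 0 library of LHCN-M2 that stood apart is the high point of CDH15 (261 CPM) and the low point of CDH11 (48.0 CPM).

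The log2 ratio of CDH15 to CDH2 counts within a library rose in both lines. In LHCN-M2 it was 1.28 ± 0.08 at day 12 and 0.05 ± 0.59 at day 0 (SD, n = 4 each), a difference of 1.24, or 1.53 without the day 0 library that stood apart. In C2C12 it was 0.68 ± 0.17 at day 6 and -0.96 ± 0.22 at day 0, a difference of 1.64. In both lines the groups did not overlap (two-sided exact permutation p = 0.0286, the smallest possible; adjusted 0.0343). The LHCN-M2 ratio came from a gain of CDH15 and a loss of CDH2, and the C2C12 ratio from 2 genes that both rose, Cdh15 the more.

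Of the immunoglobulin-family molecules, NCAM1 rose on the last day in both lines, and VCAM1 rose in LHCN-M2 and fell in C2C12. NCAM1, also known as CD56, is a surface marker of human myoblasts that binds itself on neighbouring cells; the human gene (ENSG00000149294) lies on the plus strand at chr11:112961247-113278436. The LHCN-M2 libraries had 60.5, 49.2, 64.6 and 60.8 CPM at day 0, 249.6, 242, 281 and 262 CPM at day 1, and 766, 911, 908 and 951 CPM at day 12. The days were far apart, at 2.14 on the log2 scale for day 1 against day 0 (SE 0.097, adjusted p = 1.09e-10) and 3.91 for day 12 against day 0 (SE 0.104, adjusted p = 2.08e-13), or 15-fold. The lowest day 12 value belongs to replicate 1, which stood apart, and without it the log2 change at day 12 against day 0 was 3.97 (adjusted p = 9.51e-13). The lowest day 0 value belongs to replicate 2, and without both libraries that change was 3.92. In C2C12, Ncam1 had 134, 157, 163 and 154 CPM at day 0, 108, 101, 105 and 100.4 CPM at day 1, and 214, 203, 197 and 203 CPM at day 6. It fell at day 1 against day 0 (log2 -0.55, SE 0.058, adjusted p = 1.12e-07) and was 1.34-fold higher at day 6 than at day 0 (log2 0.43, SE 0.058, adjusted p = 1.64e-06).

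VCAM1 binds the integrin VLA-4, made of ITGA4 and ITGB1, and marks satellite cells in mouse muscle; its human gene (ENSG00000162692) lies on the plus strand at chr1:100719742-100739045. In LHCN-M2 it had 0.784, 0.636, 1.47 and 1.43 CPM at day 0, from 24 to 61 counts per library. It had 6.83, 7.81, 5.05 and 4.62 CPM at day 1 and 24.8, 30.0, 31.6 and 28.8 CPM at day 12. Each step was clear of the one before, and day 12 was 26.4-fold over day 0 (log2 4.72, SE 0.249, adjusted p = 4.19e-10). In C2C12, Vcam1 had 213, 206, 225 and 202 CPM at day 0, 183, 187, 183 and 174 CPM at day 1, and 148, 166, 162 and 164 CPM at day 6. Here each day was below the one before it, with log2 differences of -0.22 at day 1 against day 0 (SE 0.052, adjusted p = 0.00143) and -0.40 at day 6 against day 0 (SE 0.052, adjusted p = 8.28e-07).

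VCAM1 is also made by activated endothelium. The summed level of 6 endothelial markers (PECAM1, CDH5, VWF, TEK, KDR and EMCN) in LHCN-M2 was between 11.3 and 20.1 CPM at day 0, between 4.70 and 6.92 at day 1 and between 15.1 and 17.3 at day 12, with CDH5 at 0 counts in all 12 libraries. Its members moved both ways at day 12 against day 0. KDR fell to 0.316 CPM at day 12, against 11.9 at day 0, while TEK (12.2 and 2.62 CPM) and VWF (3.02 and 1.06 CPM) rose, so that 2 of 4 tested were called higher and 1 lower. In C2C12 that sum reached at most 1.67 CPM, and neither of the 2 tested was called at day 6 against day 0. The part of endothelial cells in the VCAM1 result was not tested.

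JAM2 and JAM3 encode JAM-B and JAM-C, immunoglobulin-family proteins that bind each other between cells and are both needed for muscle fusion in zebrafish. JAM2 rose at each step in both lines, and JAM3 rose in LHCN-M2 and fell in C2C12. The human JAM2 (ENSG00000154721) lies on the plus strand at chr21:25639272-25717562 and JAM3 (ENSG00000166086) on the plus strand at chr11:134068925-134152001. In the human table the opposite-strand gene ATP5PF overlaps JAM2, and its counts were 65.2% of those of JAM2. Likewise NCAPD3 overlaps JAM3, with 20.9% of its counts. For mouse, overlaps were looked up in a GENCODE annotation, which may not be the one used for counting. There Gm48796 overlaps Jam3 on the opposite strand, and it had 9.24% of the counts of Jam3. It is not stated whether counting used strand, so reads of such pairs may be shared or lost.

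In LHCN-M2, JAM2 had 17.9, 18.9, 19.6 and 18.6 CPM at day 0, 46.9, 50.1, 56.4 and 53.4 CPM at day 1, and 151, 142, 162 and 144 CPM at day 12. The spread within a day was small beside the steps, and day 12 was 8-fold over day 0 (log2 3.00, SE 0.083, adjusted p = 3.03e-13). In C2C12, Jam2 had 39.8, 34.3, 38.7 and 43.7 CPM at day 0, 63.2, 64.0, 60.8 and 67.0 CPM at day 1, and 210.0, 196, 214 and 207 CPM at day 6. Day 6 was 5.27-fold over day 0 (log2 2.40, SE 0.066, adjusted p = 1.74e-17).

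JAM3 in LHCN-M2 had 107, 97.7, 112 and 111 CPM at day 0, 184, 181, 188 and 192 CPM at day 1, and 222, 240.3, 246 and 233 CPM at day 12. Its groups did not overlap, and day 12 was 2.2-fold over day 0 (log2 1.14, SE 0.068, adjusted p = 1.65e-09). Jam3 in C2C12 had 15.1, 14.6, 17.3 and 14.4 CPM at day 0, 15.5, 14.2, 12.8 and 14.2 CPM at day 1, and 10.6, 9.63, 12.1 and 10.4 CPM at day 6. Days 0 and 1 overlapped and did not pass (log2 -0.11, SE 0.099, adjusted p = 0.364), and day 6 was lower than day 0 (log2 -0.52, SE 0.101, adjusted p = 0.000113).

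The log2 ratio of JAM2 to JAM3 counts rose within libraries of both lines. It was -0.65 ± 0.09 at day 12 and -2.51 ± 0.10 at day 0 in LHCN-M2, a difference of 1.86. It was 4.28 ± 0.09 at day 6 and 1.35 ± 0.20 at day 0 in C2C12, a difference of 2.93 (SD, n = 4 each; two-sided exact permutation p = 0.0286 in each line, adjusted 0.0343). JAM3 had the more counts in LHCN-M2 on both days, and Jam2 in C2C12.

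**Figure D3:**
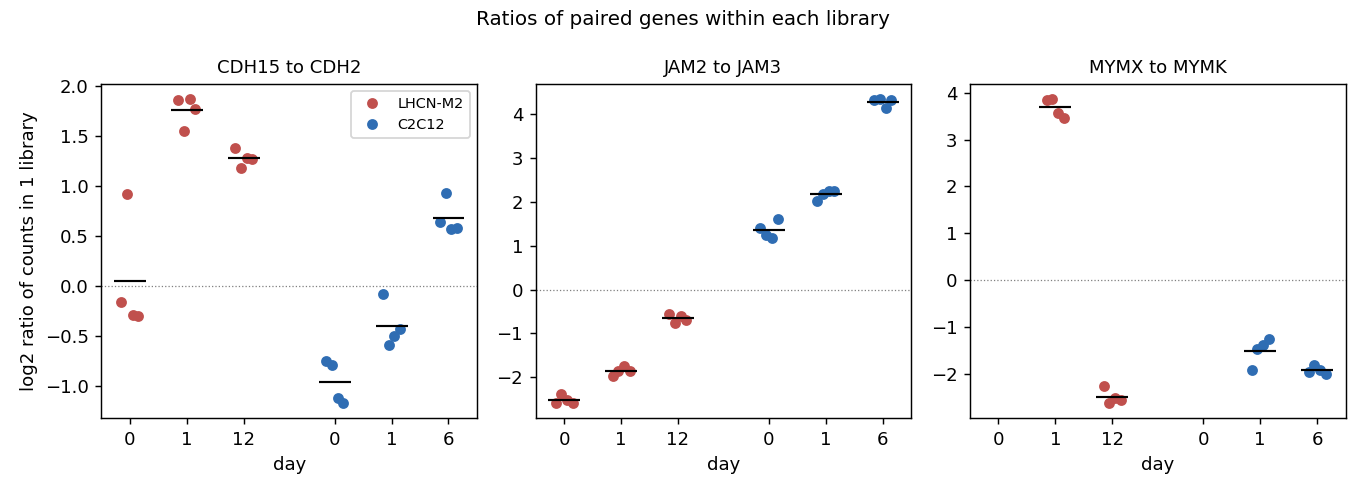
Log2 ratio of the counts of 2 genes within each library, for CDH15 to CDH2, JAM2 to JAM3 and MYMX to MYMK, by day and line; points are libraries, lines are group means, and the MYMX to MYMK panel shows day 1 and the last day. The MYMX to MYMK ratio in LHCN-M2 is between 3.45 and 3.87 at day 1 and between -2.63 and -2.27 at day 12.

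Counted together in LHCN-M2, 8 of the 9 genes were higher and 1 lower at day 1 than at day 0, where 46.9% of all genes tested were called, 23.4% higher and 23.5% lower. At day 12 against day 0 the counts were also 8 higher and 1 lower, with 54.6% of all genes called, 27.1% higher and 27.5% lower, and CDH2 was the lower gene both times. At day 12 against day 1, 6 were higher, 1 (MYMX) was lower and 2 (CDH15 and CDH11) did not pass, with 39.8% of all genes called, 20.9% higher and 18.8% lower. The groups of all 9 genes did not overlap in the first of these comparisons (43.6% of all genes tested), nor in the second (48.6%), and those of 8 did not in the third (45.8%). The median log2 fold change of the 9 was 1.47, 3.00 and 0.39 in these comparisons, against 0.03, -0.01 and 0.00 for all genes tested. MYMK, whose fold against day 0 is only a lower bound, lies above the median also at that bound. It is among the genes counted as higher than day 0, although it passed the filter on low counts only through days 1 and 12.

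In C2C12, 6 were higher, 2 (Ncam1 and Vcam1) lower and 1 (Jam3) not called at day 1 against day 0, where 50.3% of all genes were called, 25.9% higher and 24.4% lower. At day 6 against day 0 the counts were 6 higher and 3 (Cdh11, Jam3 and Vcam1) lower, with 65.6% of all genes called, 33.1% higher and 32.5% lower. At day 6 against day 1 they were again 6 higher and those 3 lower, with 61.4% called, 32.8% higher and 28.6% lower. Groups did not overlap for 7, 9 and 9 of the genes, against 45.7%, 59% and 56.7% of all genes tested. Their median log2 fold changes were 0.70, 2.19 and 1.24, against -0.01, -0.03 and 0.02 for all genes. With backgrounds this high, a call by itself says little about a single member, and the sizes carry the description.

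**Figure D4:**
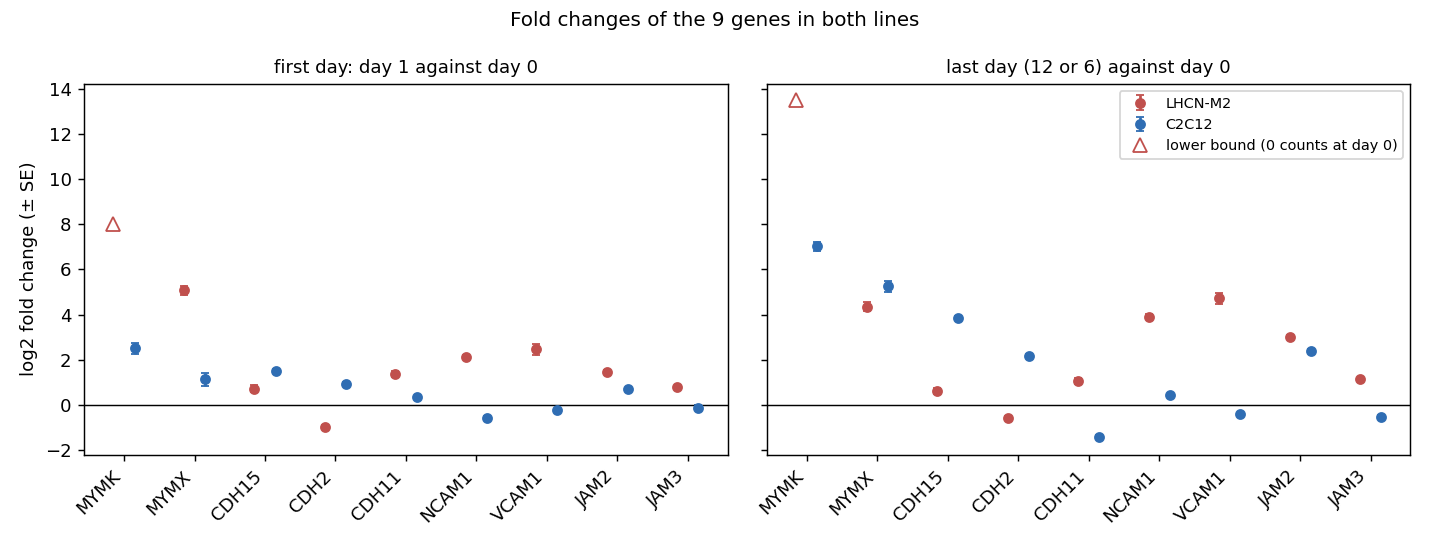
Log2 fold changes of the 9 genes with their standard errors, for day 1 against day 0 and for the last day against day 0, in LHCN-M2 and C2C12; an open triangle marks the lower bound of MYMK in LHCN-M2, which had 0 counts at day 0. MYMK, MYMX and JAM2 lie well above 0 on the last day in both lines, and CDH2, CDH11, JAM3 and VCAM1 lie on opposite sides of 0 in the 2 lines on that day.

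The change over days was compared between the lines over 10953 genes matched by symbol, as the LHCN-M2 log2 fold change minus the C2C12 one. Day 12 stands against day 6 here, so the last days differ in time. On the first day the change differed for all 9 genes, 7 higher and 2 (CDH15 and CDH2) lower in LHCN-M2, where 60% of matched genes were called, 26% higher and 34% lower. On the last day it also differed for all 9, 6 higher and 3 (CDH15, CDH2 and MYMX) lower, where 71.2% were called, 31.2% higher and 40% lower. VCAM1 differed by 5.12 (SE 0.218, adjusted p = 3.2e-16), NCAM1 by 3.49 (SE 0.114, adjusted p = 2.4e-18), CDH15 by -3.20 (SE 0.177, adjusted p = 4.98e-14) and CDH2 by -2.77 (SE 0.137, adjusted p = 5.97e-15). MYMX, with -0.89 (SE 0.355, adjusted p = 0.0294), rested on single libraries. It no longer passed without C2C12 day 0 replicate 2 (adjusted p = 0.0997), C2C12 day 0 replicate 3 (0.0877), LHCN-M2 day 0 replicate 2 (0.0713), C2C12 day 6 replicate 2 (0.0507) or LHCN-M2 day 12 replicate 2 (0.0504).

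From the first day to the last, 8 of 9 differed, 5 higher and 3 lower in LHCN-M2, where 56.9% of matched genes were called, 27% higher and 29.9% lower. MYMX had the largest difference of the 9, at -4.82 (SE 0.291, adjusted p = 1.04e-12), since it fell in LHCN-M2 and rose in C2C12. MYMK rose more in LHCN-M2, by 0.94 (SE 0.23, adjusted p = 0.00153). JAM2 was the gene that did not pass, with log2 changes of 1.54 in LHCN-M2 and 1.70 in C2C12 (difference -0.16, SE 0.096, adjusted p = 0.157).

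Divided by the length each table gives, CPM per kilobase put the genes in order within a line. In LHCN-M2 at day 0, CDH15 (39.7) and CDH2 (35.4) led and overlapped, VCAM1 had 0.179 and MYMK was at 0 counts. At day 1 MYMX (76.2 ± 11.2) and CDH15 (66.0) led and overlapped, followed by JAM3 (34.2). At day 12 MYMK (216.9 ± 10.4) stood clear of the rest, then came NCAM1 (69.4) and CDH15 (61.6), which overlapped, and then MYMX (46.3) and JAM3 (43.2), which overlapped too. VCAM1 was the lowest at day 12, with 4.76.

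In C2C12 the order at day 0 began with Cdh11 (24.5) and Vcam1 (23.8), which overlapped, and ended with Mymx (0.582) and Mymk (0.446), which overlapped too. At day 1 Cdh11 led with 31.4, then Vcam1 with 20.5. At day 6 Mymk (59.0 ± 4.65) and Cdh15 (58.8 ± 3.71) led and could not be told apart, Jam2 followed with 34.2, Ncam1 (23.6) and Mymx (22.8) overlapped, and Jam3 was lowest with 3.33. The lengths cover all annotated exons, so these levels depend on which transcripts the cells make. Levels of the 2 lines come from tables of different annotations and are given side by side only.

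**Figure D5:**
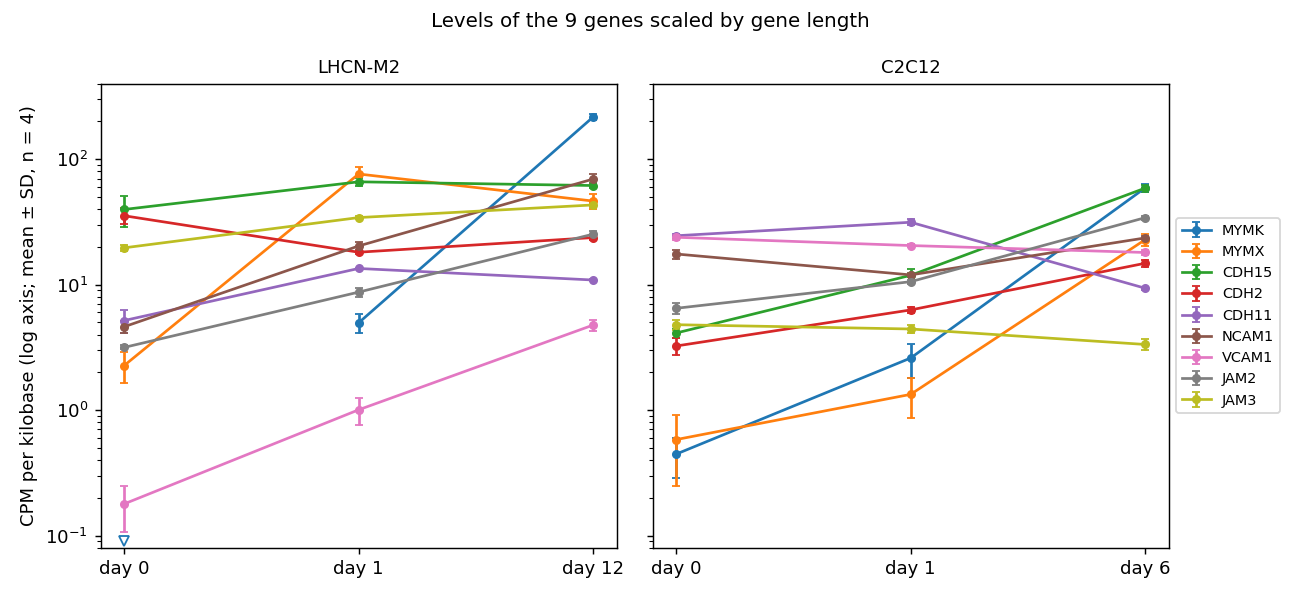
Mean CPM per kilobase of each gene by day, on a log axis, for LHCN-M2 and C2C12; the error bars are the SD over 4 libraries, and the open triangle marks MYMK at 0 counts. MYMK goes from the bottom of the order at day 0 to the top on the last day in both lines, where it shares that place with Cdh15 in C2C12.

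Within each line, the genes whose log2 CPM over the 12 libraries was most like that of MYMK were, in LHCN-M2, MRAS (Pearson r = 0.9996), RGS16 (0.9995), CYP1B1 (0.9987), WNT10A (0.9987) and PLEKHG5 (0.9983). In C2C12 they were Casq2 (0.9974), Acta1 (0.9969), Cacng1 (0.9966), C1qtnf3 (0.9964) and H19 (0.9960). For MYMX they were DCN (0.9962), MYCL (0.9959), PDLIM3 (0.9947), SLC25A23 (0.9946) and GBP2 (0.9941) in LHCN-M2 and Serpinb7 (0.9936), Ddx39a (0.9927), Arl6ip5 (0.9917), Tmsb4x (0.9915) and Ackr3 (0.9915) in C2C12. The 12 libraries share 3 days, so such values describe 3 levels and are high for many genes. DCN is also 1 of the fibroblast markers above. The values were taken over 11707 genes in LHCN-M2 and 11387 in C2C12.

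Among the other members, NCAM1 was most like MEF2C (0.9991), MRAS (0.9985) and NUAK1 (0.9980) in LHCN-M2 and Bhlhe40 (0.9925) and Larp1b (0.9870) in C2C12. JAM2 was most like MYH7 (0.9985), CDKN2B (0.9972) and MRAS (0.9970) in LHCN-M2 and Map2 (0.9975), Dusp3 (0.9974) and Grem1 (0.9972) in C2C12. CDH15 was most like MYL5 (0.9783), PROB1 (0.9746) and IDUA (0.9720) in LHCN-M2 and Insig1 (0.9979), Cd82 (0.9971) and Chrna1 (0.9970) in C2C12. CDH2 was most like SMURF2 (0.9911), KIAA1549L (0.9888) and SH3RF1 (0.9859) in LHCN-M2, and Ltn1 (0.9953) and Flrt2 (0.9918) were among the genes most like it in C2C12. CDH11 was most like DSE (0.9952), SLC12A2 (0.9946) and SESN3 (0.9944) in LHCN-M2 and P2rx7 (0.9978), C1s1 (0.9963) and C1s2 (0.9942) in C2C12. JAM3 was most like CALD1 (0.9986), DCLK1 (0.9976) and VASH2 (0.9974) in LHCN-M2 and Ikzf2 (0.9625), Slc10a7 (0.9536) and Rbm5 (0.9392) in C2C12. VCAM1 was most like RAPGEF5 (0.9942), SH3BGRL2 (0.9921) and ANK2 (0.9920) in LHCN-M2 and Ccni (0.9810), Irf5 (0.9772) and Cd47 (0.9754) in C2C12.

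Between members, MYMK was close to JAM2 in both lines (r = 0.996 in LHCN-M2 and 0.988 in C2C12). It was close to NCAM1 (0.997) and VCAM1 (0.982) in LHCN-M2, where the same values in C2C12 were 0.56 and -0.927. With CDH2 it was at -0.608 in LHCN-M2 and 0.969 in C2C12.

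Counts over related gene lists are to be read against all genes tested, of which 27.1% were higher and 27.5% lower at day 12 against day 0 in LHCN-M2 (median log2 -0.01), and 33.1% higher and 32.5% lower at day 6 against day 0 in C2C12 (median -0.03). The list of 36 other fusion genes holds ferlins, tetraspanins, integrins and regulators of actin. In LHCN-M2, of 32 tested, 9 were higher, 11 lower and 12 not called at day 12 against day 0 (median log2 -0.07), near the share over all genes in each direction. In C2C12, of 30 tested, 17 were higher, 11 lower and 2 not called at day 6 against day 0 (median 0.22). CAV3, the caveolin of muscle, had 78.6 CPM at day 12 and 14.5 at day 0 in LHCN-M2 (log2 2.44, adjusted p = 3.23e-09). In C2C12, Cav3 had 12.2 CPM at day 6 and 0.0302 at day 0 (log2 8.62, adjusted p = 2.36e-12). Its day 0 level there came from 4 counts over the group, with 0 to 0.121 CPM per library. The size of that change is therefore uncertain, and Cav3 passed the filter on low counts through its day 6 level. TMEM182, a muscle membrane protein reported in mouse and chicken to restrain fusion, had 95.9 CPM at day 12 and 4.12 at day 0 in LHCN-M2 (4.54, adjusted p = 1.29e-13), and 33.2 at day 6 and 0.452 at day 0 in C2C12 (6.15, adjusted p = 3.72e-14). The adhesion gene KIRREL3 fell in LHCN-M2 (-1.43, adjusted p = 3.25e-06) and rose in C2C12 (0.53, adjusted p = 0.000132). The chemokine receptor gene Cxcr4 rose in C2C12 (2.42, adjusted p = 6.73e-10).

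Of 22 other cadherin and catenin genes, 16 were tested in LHCN-M2, and 9 were higher and 5 lower at day 12 against day 0 (median 0.32, against -0.01 for all genes; 27.1% and 27.5% of all genes). In C2C12, 11 were tested, and 7 were higher and 2 lower at day 6 against day 0 (median 0.30, against -0.03; 33.1% and 32.5% of all genes). The neuronal-type cadherin CDH8 had 40.6 CPM at day 12 and 10.9 at day 0 in LHCN-M2 (log2 1.89, adjusted p = 3.91e-09), while CDH4 (-1.84, adjusted p = 4.09e-07) and CDH24 (-1.64, adjusted p = 2.15e-07) fell there. In C2C12, Cdh13, a cadherin anchored by lipid, had 197.9 CPM at day 6 and 43.2 at day 0 (log2 2.2, adjusted p = 1.8e-16). Per kilobase, Cdh13 was at 17.6 CPM at day 6, below Cdh15 at 58.8. Cdh18 also rose (1.62, adjusted p = 1.6e-13), and Cdh23 fell (-1.51, adjusted p = 1.72e-07).

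Of 23 other immunoglobulin adhesion genes, 18 were tested in LHCN-M2, and 10 were higher and 2 lower at day 12 against day 0 (median 0.89, against -0.01 for all genes; 27.1% and 27.5% of all genes). In C2C12, 13 were tested, and 10 were higher and 2 lower at day 6 against day 0 (median 1.00, against -0.03; 33.1% and 32.5% of all genes). CADM1, which binds itself and other nectin-like proteins, rose in both lines, at 65.1 CPM at day 12 and 2.61 at day 0 in LHCN-M2 (log2 4.64, adjusted p = 4.75e-14) and 26.8 CPM at day 6 and 3.33 at day 0 in C2C12 (3.01, adjusted p = 1.04e-13). L1CAM, a nerve adhesion molecule, had 39.1 CPM at day 12 and 0.647 at day 0 in LHCN-M2 (5.89, adjusted p = 6.63e-12), and BCAM, a laminin receptor, 104 and 4.47 (4.54, adjusted p = 3.29e-10). In C2C12, Igsf11 rose (1.83, adjusted p = 5.82e-08) and Mcam fell (-1.68, adjusted p = 7.19e-07).

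The last list holds 11 binding partners and modifiers of the members. In LHCN-M2, of 9 tested, 6 were higher and 1 lower at day 12 against day 0 (median 1.2, against -0.01 for all genes; 27.1% and 27.5% of all genes). In C2C12, of 8 tested, 1 was higher and 3 lower at day 6 against day 0 (median -0.16, against -0.03; 33.1% and 32.5% of all genes). The 1 that rose in C2C12 was Itga4, the integrin chain that binds VCAM1, with 21.5 CPM at day 6 and 1.13 at day 0 (log2 4.26, adjusted p = 6.09e-13). ITGA4 rose in LHCN-M2 too, with 161 CPM at day 12 and 33.8 at day 0 (2.25, adjusted p = 2.11e-08). CDON and BOC are receptors that sit with cadherins at myoblast contacts. Both rose in LHCN-M2, CDON at 53.7 CPM at day 12 and 9.39 at day 0 (2.51, adjusted p = 1.99e-08) and BOC at 8.16 and 2.29 (1.83, adjusted p = 8.18e-06). In C2C12, Boc fell to 6.01 CPM at day 6, against 21.3 at day 0 (-1.82, adjusted p = 3.85e-12). Itgb7, which can pair with Itga4, fell as well, to 4.49 CPM at day 6 (-1.05, adjusted p = 2.89e-06). Itgb1, the partner of Itga4 in VLA-4, is on the list of other fusion genes. It rose in C2C12, with 1963 CPM at day 6 and 1229 at day 0 (0.68, adjusted p = 1.62e-11).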

How the data were processed

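The authors deposited 1 table of raw counts per gene for each line, whole numbers that are not normalized. Per the submitters' processing notes, the builds named are mm10, GRCh38 and hg38 and the tools featureCounts 2.0.6, HISAT2 2.2.1, fastp and StringTie 2.2.3. Per the labels' protocols, RNA was selected with poly-T beads and cDNA was made with random hexamers. A strand-marking option is mentioned, but its use in counting is not given in the sources used here. Human positions are those of the human table. The mouse table's starts matched GRCm38.p6 RefSeq for 0.752% of 38940 shared symbols, so no mouse position is taken from it.

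The 9 genes and all lists were chosen with earlier results of these data known. From the counts, edgeR 4.0.16 (R 4.3.3) gave TMM-scaled CPM and quasi-likelihood tests on the 12 libraries of a line, after filterByExpr, with 1 coefficient per day and Benjamini-Hochberg adjustment over all genes tested, at a threshold of 0.05. Differences between lines came from 1 fit to all 24 libraries on genes matched by symbol. Ratios of counts (0.5 added to both) had exact permutation tests over libraries. Fold changes against a group at 0 counts are lower bounds from 3 counts over that group. From each list, the 3 called genes with the largest last-day change per line and at least 5 CPM on 1 day are named; likeness names the 5 (MYMK, MYMX) or 3 genes with the highest r of log2 CPM (prior count 2). A few genes and marker lists that these rules give are not reported here. The tests within a line were tried on simulated data with known changes on the last day. For the line difference only the calls were counted there. The ratio tests and lower bounds were not simulated. Alternatives covered normalization, filters, DESeq2 1.42.0, each library left out, the libraries fitted and a replicate block. Replicates differed by more than counting error (chi-square per degree of freedom 6.32 or more), so none was counted as a duplicate. Depth covers counting error only: PCR copies are not independent molecules.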

Additional observations from a re-analysis of the deposited data

Results flagged for a closer look

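In LHCN-M2 at day 0, replicate 2 lay far from the other 3 libraries for CDH15, at 260.7 CPM against 154 to 162 CPM in the others. It also did for CDH11, at 48.0 CPM against 74.9 to 77.8 CPM in the others. The gap took 0.929 and 0.902 of the group's range, above Dixon's critical value of 0.829 for 4 samples. Among 53 groups examined, 2 stood out in this way; chance gives about 1 in 20. Both belong to replicate 2, which also stood apart on all genes.

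The other results listed here are differences between the lines in the change over days, each past the threshold in a test of the difference itself (log2, LHCN-M2 minus C2C12). On the first day they were 3.93 for MYMX, -0.79 for CDH15, -1.92 for CDH2, 1.02 for CDH11, 2.69 for NCAM1, 0.76 for JAM2, 0.91 for JAM3 and 2.69 for VCAM1. On the last day against day 0 they were -0.89 for MYMX, -3.20 for CDH15, -2.77 for CDH2, 2.46 for CDH11, 3.49 for NCAM1, 0.60 for JAM2, 1.66 for JAM3 and 5.12 for VCAM1. From the first day to the last they were 0.94 for MYMK, -4.82 for MYMX, -2.41 for CDH15, -0.85 for CDH2, 1.44 for CDH11, 0.79 for NCAM1, 0.74 for JAM3 and 2.43 for VCAM1. For MYMK the fitted differences against day 0, 8.12 on the first day and 9.06 on the last, depend on the prior count because LHCN-M2 had 0 counts at day 0. By its lower bound MYMK rose at least 260.2-fold on the first day in LHCN-M2, against 5.74-fold in C2C12, and at least 11380-fold on the last day, against 130-fold. CDH2, CDH11, JAM3 and VCAM1 had opposite signs in the 2 lines on the last day.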

How the results depend on the processing

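No direction reversed under any alternative. The counts of members called changed only through CDH11 and MYMX, as given below. Each ratio kept its side of the threshold when a larger number was added to both counts. With a library left out, no p-value was computed for the ratios. Their differences then moved by less than the SD between libraries. For the ratios a replicate block is no test, since with groups of equal size it leaves the difference of the means unchanged. Single genes near the threshold did move. CDH11 at day 12 against day 1 in LHCN-M2 (adjusted p = 0.0501) ranged between 1.18e-05 and 0.0988 over the alternatives. It also passed with a stricter filter (0.0412), no filter (0.0326), upper-quartile scaling (0.0299) and the libraries of those days alone (5.92e-05). It did not pass with DESeq2 (0.0669), RLE scaling (0.076) or a replicate block (0.0611). Nor did it pass without any 1 library of day 1 or day 12 (0.0867 to 0.0988). The MYMX difference between lines on the last day ranged between 0.00286 and 0.0997. Leaving out each library in turn gave 7 to 8 members called at day 12 against day 1 in LHCN-M2 and 8 to 9 for the last-day line difference. Same-numbered libraries did not deviate together: correlations ran from -0.1 to 0.0914 in LHCN-M2 and from -0.0527 to 0.0386 in C2C12, so the numbers are not taken as pairs. With the number as a replicate block the members called stayed at 9, 9 and 7 in LHCN-M2 and 8, 9 and 9 in C2C12, and at 9, 9 and 8 for the line differences. The all-gene counts under that block were 8102, 9502 and 6816 in LHCN-M2 and 8381, 11037 and 10318 in C2C12. Depth limits Mymk, Mymx and VCAM1 at day 0, where a library held as few as 10 counts.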

Other observations

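MYOG, the differentiation factor of the MyoD family, shared its zero with MYMK. In LHCN-M2 it had 0 counts in all 4 libraries at day 0, and means of 79.8 CPM at day 1 and 362 CPM at day 12. In C2C12, Myog had means of 3.75 CPM at day 0, 13.7 CPM at day 1 and 143 CPM at day 6.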
